A study of Mus musculus with 2 samples.

Results

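Z-nucleic acid sensing and necroptosis were followed through the transcripts of 8 genes, Zbp1, Adar, Ripk1, Ripk3, Mlkl, Casp8, Fadd and Cflar. They were chosen by symbol among the 32285 gene rows of the deposited matrices, and all 8 were found. Zbp1 is the sensor of nucleic acids in the left-handed Z form, and through its RHIM domain it binds the kinase Ripk3. Ripk3 phosphorylates Mlkl, which then permeabilizes the plasma membrane in the lytic cell death called necroptosis. Ripk1 is the related kinase that carries the signal downstream of TNF receptors. Casp8, its adaptor Fadd and Cflar, which encodes the caspase-8 regulator cFLIP, form the complex that cleaves the kinases and holds necroptosis back. Adar edits double-stranded RNA and thereby limits the ligands that reach Zbp1, and Zbp1 and Adar are both interferon-inducible.

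The cells came from female BALB/c mice (BALB/cAnNCrl in the labels), aged 7 to 8 weeks when bought, whose livers carried metastases of 4T1, a mouse mammary carcinoma line, seeded through the spleen. Hepatic arterial infusion delivered the vehicle or CBL0137, a curaxin that binds DNA, traps the histone chaperone FACT and can drive DNA into the Z form. Leukocytes were taken 5 days later and pooled from 2 mice, read here as 2 per group. Each of 2 droplet libraries mixed 3 groups, the vehicle, a low dose and a high dose, and the sources used here tie no amount to the low or the high dose. Cells were traced to a group by hashtags (oligonucleotides carried on antibodies), and every value by group rests on these 15-base sequences, printed 5′ to 3′ as the files hold them.
A0301, vehicle: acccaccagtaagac
A0305, low dose: ctttgtctttgtgag
A0310, high dose: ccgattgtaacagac
The study's methods list all 3 sequences but name only the vehicle and high dose tags for staining. They describe cells isolated with CD11b beads, while the labels describe leukocytes, and T and B cell-like cells were found in both libraries. Each group was 1 pool in 1 library, with no replicates, so no test was made and no p-value is given. Intervals are exact 95% intervals that cover counting error only, not the spread between animals.

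The 2 libraries are named here as their labels name them, although the labels do not match the transcripts. Hepatocyte, Kupffer and liver endothelial transcripts were found in the spleen-labelled library, and the file names also give that library as liver. The liver-labelled library held 8435 cells with 1 hashtag and 68667953 UMIs (unique molecular identifiers, 1 per captured transcript), and the spleen-labelled library held 2988 cells and 28272132 UMIs. The 2 libraries shared 15 barcodes. A further 540 and 1627 barcodes had no hashtag call, and in the spleen-labelled library the high dose tag was the most abundant in 1532 of the 1627. Cells were clustered without the 8 genes, and clusters were called X-like from lists of marker genes. A level below is a gene's UMIs per 1000000 UMIs (CPM) summed over the cells of a class, mitochondrial UMIs included. The largest class was neutrophil-like, with 2912 cells in the liver-labelled library and 969 in the spleen-labelled library. It made up 46.0% of vehicle cells, 40.3% of low dose cells and 9.26% of high dose cells in the liver-labelled library, and 35.8%, 43.4% and 12.8% in the spleen-labelled library.

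All 8 genes lie on autosomes of GRCm38, in the GENCODE vM21 annotation. Zbp1 (ENSMUSG00000027514) spans chr2:173206612-173218923 on the minus strand and Adar (ENSMUSG00000027951) chr3:89715022-89753446 on the plus strand. Ripk1 (ENSMUSG00000021408) spans chr13:34002363-34037147 on the plus strand, Ripk3 (ENSMUSG00000022221) chr14:55784995-55788865 on the minus strand and Mlkl (ENSMUSG00000012519) chr8:111311797-111338177 on the minus strand. Casp8 (ENSMUSG00000026029, chr1:58795374-58847503, plus strand) lies downstream of Cflar (ENSMUSG00000026031, chr1:58711508-58758884, plus strand) on chromosome 1, and Fadd (ENSMUSG00000031077) spans chr7:144577318-144582463 on the minus strand. Ripk1 and Casp8 each overlap a predicted gene on their own strand, Gm17084 and Gm37760, so reads in the overlap are uncertain. Adar, Ripk1, Mlkl and Fadd overlap annotated genes on the other strand.

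The 8 genes differed in how widely they were found. In the liver-labelled library the assigned cells held 4173 UMIs of Cflar, 3579 of Casp8, 3029 of Ripk1, 2413 of Zbp1, 1225 of Adar, 1162 of Ripk3, 474 of Fadd and 156 of Mlkl. The same genes held 1822, 1794, 1308, 1341, 624, 760, 240 and 270 UMIs in the spleen-labelled library. Mlkl and Fadd were thus the genes with the least depth, and their values by group rest on few UMIs. Levels were compared between cell classes for 1 gene at a time, not between genes.

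The sensor Zbp1 was highest in monocyte-like cells in both libraries, with 74.9 CPM (interval 68.1 to 82.3) in the liver-labelled library and 130 CPM (116 to 146) in the spleen-labelled library. T cell-like cells of the liver-labelled library followed with 59.9 CPM and its NK cell-like cells with 52.1 CPM, whose intervals overlapped. Neutrophil-like cells held 31.0 CPM, macrophage-like cells 25.9 CPM and B cell-like cells 20.6 CPM, of which only neighbors in this order had overlapping intervals. Granulocyte progenitor-like cells were the lowest, with 5.08 CPM (3.69 to 6.82). These levels sum all hashtag groups, which differed in neutrophil-like cells as given below. In the vehicle group alone, the log2 ratio of neutrophil-like to T cell-like cells was -0.42 in the liver-labelled library, under 1.5-fold. T cell-like cells of the spleen-labelled library held 79.0 CPM and its neutrophil-like cells 38.0 CPM, and macrophage-like cells stood higher in the order, with 75.2 CPM beside the T cell-like cells. Non-hematopoietic classes also held Zbp1, with 41.5 CPM in endothelial-like cells (37 UMIs in 250 cells) and 39.3 CPM in 4T1 tumor cell-like cells (104 UMIs in 74 cells). Hepatocyte-like cells held 15.0 CPM from 7 UMIs, and in them mitochondrial UMIs made up a median of 93.0%, 86.2% and 88.9% in the vehicle, low dose and high dose groups. For Adar, the editing enzyme, intervals overlapped from macrophage-like cells (33.3 CPM) down to neutrophil-like cells (14.9 CPM), each with its neighbor in the order, in the liver-labelled library, and only granulocyte progenitor-like cells stood below their neighbor, at 6.12 CPM. Endothelial-like cells of the spleen-labelled library were its highest class for Adar, with 47.1 CPM, beside 35.5 CPM in macrophage-like cells.

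The kinase Ripk3 was highest in macrophage-like and monocyte-like cells among the named classes of both libraries. Macrophage-like and monocyte-like cells held 51.8 and 47.7 CPM in the liver-labelled library, and the other named classes ran from 16.0 CPM in NK cell-like to 7.61 CPM in neutrophil-like cells. The macrophage-like class of that library also held T cell markers, summed to 1967, 1925 and 2888 CPM in the vehicle, low dose and high dose groups beside 5062, 5141 and 5472 CPM in T cell-like cells, and their part in its levels and ratios was not tested. Macrophage-like cells of the spleen-labelled library held 55.2 CPM and monocyte-like cells 43.1 CPM, and T cell-like and granulocyte progenitor-like cells followed with 29.6 and 29.4 CPM. Endothelial-like cells held 17.9 CPM, from 16 UMIs in 9 of 250 cells, and 4T1 tumor cell-like cells 5.29 CPM, from 14 UMIs in 4 of 74 cells. The low level in tumor cell-like cells therefore came from very few cells. Clusters without a class name also held Ripk3, with 40.2 CPM in the cluster of the liver-labelled library led by the mast cell and basophil genes Prss34, Mcpt8 and Cpa3, and 42.2 CPM in the cluster led by hemoglobin genes. The progenitor-like cluster of the spleen-labelled library led by Ctsg and Mpo held 42.2 CPM as well. All granulocyte progenitor-like cells of that library together gave 29.5% of the Ripk3 UMIs there, beside 26.9% of all UMIs. Ripk1, the upstream kinase, was highest in macrophage-like cells, with 87.0 CPM in the liver-labelled library and 72.9 CPM in the spleen-labelled library. Their intervals overlapped those of monocyte-like cells in both libraries. They also overlapped those of NK cell-like cells (61.4 CPM) in the liver-labelled and endothelial-like cells (70.7 CPM) in the spleen-labelled library. Neutrophil-like cells held 47.6 and 46.0 CPM of Ripk1.

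The executor Mlkl was nearly not found in neutrophil-like cells. The 2912 neutrophil-like cells of the liver-labelled library held 7 UMIs of Mlkl, or 0.260 CPM (0.104 to 0.535), and the 969 of the spleen-labelled library held 2, or 0.342 CPM (0.0414 to 1.24). Monocyte-like cells held 10.1 and 9.23 CPM in the 2 libraries. The highest levels of Mlkl were those of the 4T1 tumor cell-like cells with 25.7 CPM (19.9 to 32.6), the endothelial-like cells with 22.4 CPM (13.7 to 34.6) and the macrophage-like cells with 17.3 CPM (13.7 to 21.6), all in the spleen-labelled library and with overlapping intervals. T cell-like cells held 0.158 CPM in the liver-labelled library, from 2 UMIs in 2471 cells, and 4.93 CPM in the spleen-labelled library. The kinase and its substrate therefore did not share 1 order of classes, since 4T1 tumor cell-like cells were the highest for Mlkl and, with 5.29 CPM, next to the lowest for Ripk3. Among macrophage-like cells of the spleen-labelled library, the cluster with all 5 Kupffer markers held 80.5 CPM of Ripk3 (62.8 to 101) and 28.3 CPM of Mlkl (18.3 to 41.8). The cluster led by Arg1 and Ccl8 held 49.1 CPM of Ripk3 (42.1 to 56.8) and 14.6 CPM of Mlkl (10.9 to 19.1). The intervals of Ripk3 did not overlap between these clusters, and those of Mlkl overlapped slightly.

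**Figure D1:**
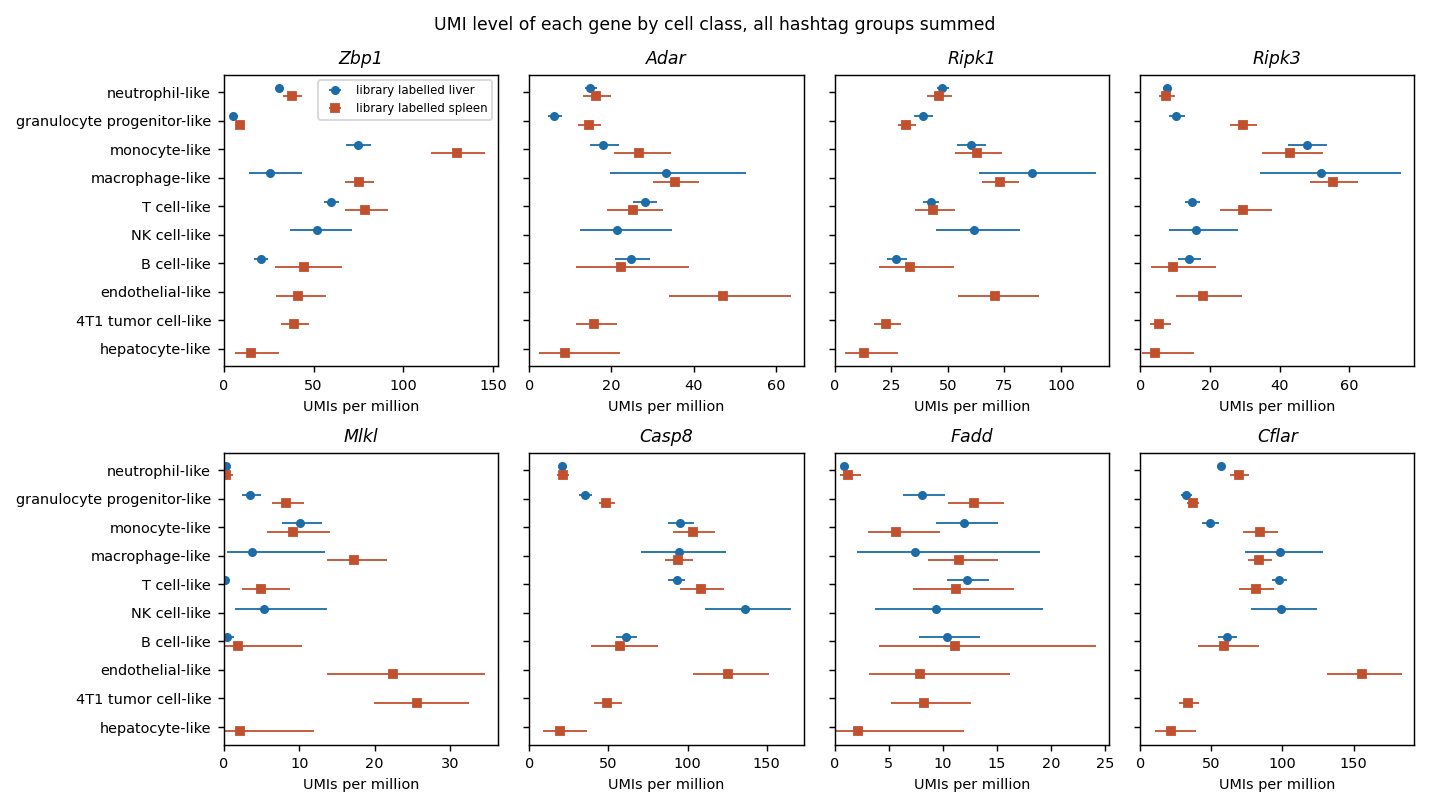
UMIs of each of the 8 genes per 1000000 UMIs (horizontal axis) by cell class (vertical axis), all hashtag groups summed, in classes of at least 50 cells. Circles are the liver-labelled library, squares the spleen-labelled library and bars exact 95% Poisson intervals. Neutrophil-like cells were near 0 for Mlkl and Fadd and low for Ripk3 and Casp8, but not for Ripk1 and Cflar. For Zbp1 they had rank 4 of 7 classes in the liver-labelled library and rank 7 of 9 in the spleen-labelled library.

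The genes that restrain necroptosis also differed between classes. Casp8 was highest in NK cell-like cells of the liver-labelled library (136 CPM) and in endothelial-like cells of the spleen-labelled library (126 CPM), and ran from 93.1 to 109 CPM in T cell-like, monocyte-like and macrophage-like cells of the 2 libraries. Neutrophil-like cells held 20.6 and 21.0 CPM, the lowest of the hematopoietic classes with at least 50 cells in both libraries. Fadd was found in neutrophil-like cells at 0.817 CPM (22 UMIs) and 1.20 CPM (7 UMIs), against 12.2 and 11.2 CPM in T cell-like cells. Cflar was not low in neutrophil-like cells in the same way, with 56.6 and 69.6 CPM. It was highest in endothelial-like cells, with 156 CPM (131 to 184), and reached 97.8 CPM in T cell-like cells of the liver-labelled library and 81.2 CPM in those of the spleen-labelled library.

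The share of each gene that fell to neutrophil-like cells shows the same uneven makeup. In the liver-labelled library these cells were 34.5% of cells and gave 39.2% of all UMIs. They gave 34.6% of the UMIs of Zbp1, but 17.6% of those of Ripk3, 4.49% of those of Mlkl and 4.64% of those of Fadd. In the spleen-labelled library they were 32.4% of cells and gave 20.7% of all UMIs, 5.79% of those of Ripk3, 0.741% of those of Mlkl and 2.92% of those of Fadd. Macrophage-like cells, 9.84% of cells there, gave 16.0% of all UMIs, 32.8% of those of Ripk3 and 28.9% of those of Mlkl. The 4T1 tumor cell-like cells, 2.48% of cells, gave 9.37% of all UMIs and 25.2% of those of Mlkl.

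Ratios between classes within the vehicle group put these differences beside the background of all genes. A gene was counted as higher or lower when 2 sides differed by at least 1.5-fold and held at least 50 UMIs together. Against monocyte-like cells in the liver-labelled library, 4 of the 7 genes with enough UMIs were lower in neutrophil-like cells, where 61.7% of all 8577 genes were, and in the spleen-labelled library 3 of 5, where 57.0% were. Against macrophage-like cells 5 of 6 were lower, where 53.0% of all genes were, and 4 of 6, where 58.8% were. Against T cell-like cells 4 of 6 were lower, where 58.5% were, and 2 of 4, where 46.8% were. Many genes of the files were thus lower in neutrophil-like cells in each comparison, and nothing particular to the 8 genes was read from these counts. Ripk3 had a log2 ratio to macrophage-like cells of -2.89 in the liver-labelled library (7.40-fold lower) and of -3.08 in the spleen-labelled library (8.48-fold lower), and a log2 ratio to monocyte-like cells of -2.63 in the liver-labelled library. The macrophage-like side of the first ratio held only 11 UMIs of Ripk3 in 62 cells. The neutrophil-like side of the second also held few, as given below, so both folds are rough values. Casp8 was lower in all 6 of these comparisons, with log2 ratios from -2.51 to -1.83. Zbp1 had log2 ratios of -0.42 and -1.05 to T cell-like cells in the liver- and spleen-labelled libraries, and of 0.57 and -0.69 to macrophage-like cells. Those of -0.42 and 0.57 were under 1.5-fold. Ripk1 had a log2 ratio of -1.02 to macrophage-like cells in the liver-labelled library. Per cell in place of per UMI, Ripk1 and Cflar were higher in neutrophil-like than in macrophage-like cells of that library, with log2 ratios of 0.35 and 0.12, and Ripk3 was level with T cell-like cells at 0.02.

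Within the granulocyte clusters Zbp1 was highest per UMI where Ripk3, Mlkl and Fadd were low. The clusters were ordered after their leading genes were seen, from granulocyte progenitor-like to neutrophil-like cells. The first was led by Elane, Prtn3 and Fcnb and the last 2 by Il1b and Csf3r. Between them came those led by the granule genes Ltf, Camp and Ngp, by Ly6g and Mmp8, and by Stfa3 and Stfa2. Led by means that the named genes were among the 10 leading genes of a cluster, not always the first. The order between the ends was a choice, so the steps along it are a description only. In this order the level of Zbp1 in the liver-labelled library was 5.08, 7.23, 17.0, 19.8, 65.0 and 80.3 CPM. In the same clusters Ripk3 was at 10.4, 12.0, 5.50, 8.41, 4.74 and 3.86 CPM, Mlkl at 3.46, 1.14, 0, 0, 0.316 and 0 CPM and Fadd at 8.08, 2.66, 1.05, 0.370, 0 and 0 CPM. The intervals of the end clusters did not overlap for any of the 4 genes. A count of 0 UMIs of Fadd in the last 2 clusters allows up to 0.947 and 0.772 CPM. Depth was lower in the last clusters, with a median of 3307.5 UMIs per cell in the last and 32718 in the progenitor-like cluster. These levels also sum all hashtag groups, whose mix differed between clusters. Zbp1 in the last 2 clusters was at 104 and 99.6 CPM in the vehicle group and at 37.9 and 40.5 CPM in the low dose group. The parts of depth and of this mix in these levels were not tested. Per cell, the rise of Zbp1 from the cluster led by Stfa3 to the last was smaller in the vehicle group, and the low dose group showed none. The vehicle group held 256 UMIs in 649 cells of the last cluster and 85 in 246 of that led by Stfa3. The low dose group held 50 in 302 and 43 in 239. The spleen-labelled library gave clusters led by Mpo and Ctsg, by Camp and Cebpe, by Stfa3 and Ly6g, by G0s2 and Csf3r, and by Ccrl2 and Il1b, which held 11.1, 5.90, 19.8, 63.2 and 90.0 CPM of Zbp1. Their levels of Ripk3 were 42.2, 13.6, 8.41, 8.25 and 6.0 CPM and their levels of Mlkl 9.48, 6.78, 0.30, 0.687 and 0 CPM. The vehicle group held 26 UMIs of Zbp1 in 101 cells of the last cluster, and 42 in 109 of that led by G0s2. The last was thus not the highest per cell. Its Ripk3 level rests on 2 UMIs in low dose and 1 in vehicle cells, and cannot be told apart from the 13.6 CPM given above. Per UMI, the clusters with the most Zbp1 held less Ripk3 than the progenitor-like clusters led by Elane and by Mpo. The steps between neighbors did not all run in opposite directions.

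**Figure D2:**
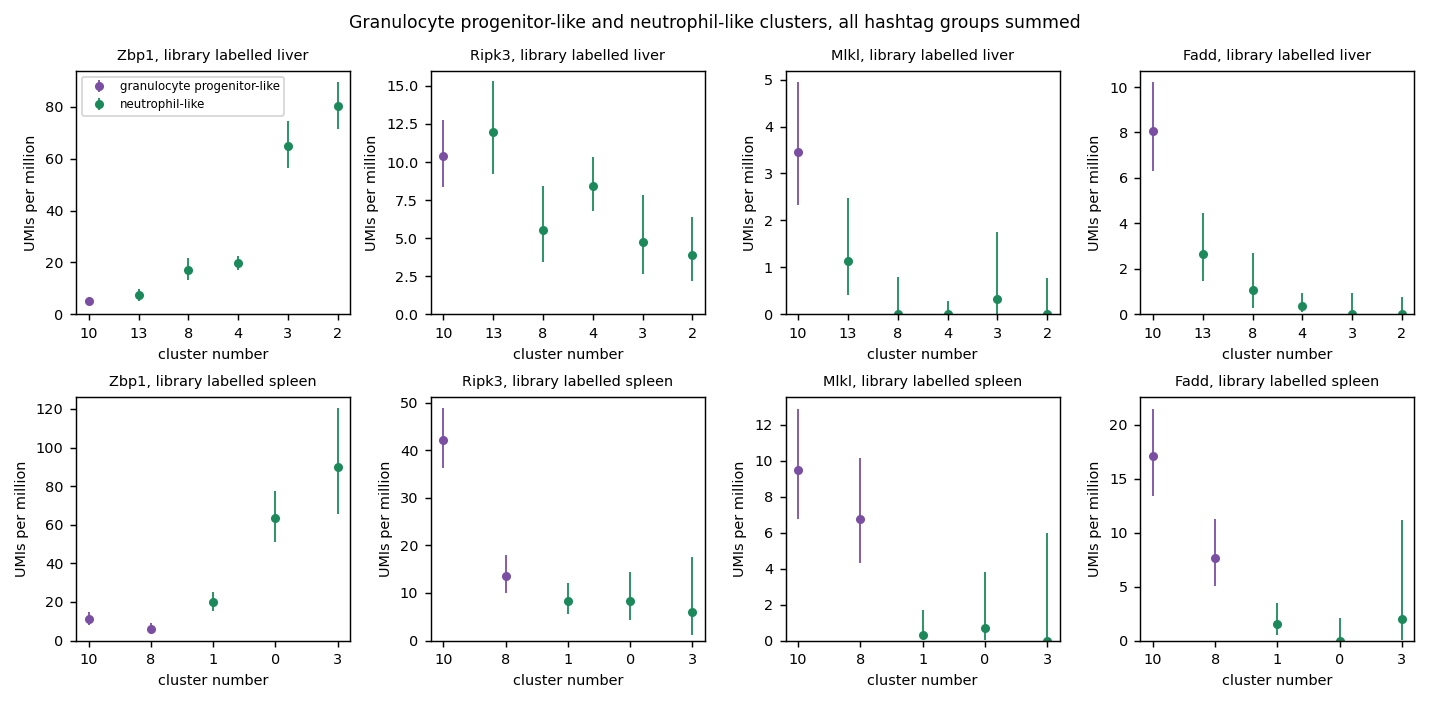
CPM of Zbp1, Ripk3, Mlkl and Fadd (vertical axes) in the granulocyte progenitor-like (purple) and neutrophil-like (green) clusters of each library (horizontal axes, cluster numbers), all hashtag groups summed, with exact 95% Poisson intervals. The cluster of the spleen-labelled library that was nearly all low dose cells is not drawn. Per UMI, Zbp1 was highest in the clusters on the right, where Mlkl and Fadd were at or near 0.

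Zbp1 was lower in neutrophil-like cells of both CBL0137 groups than in those of the vehicle group when UMIs were summed. In the liver-labelled library it was at 44.4 CPM in the vehicle group (529 UMIs, 40.7 to 48.3), 18.0 CPM in the low dose group (199 UMIs, 15.6 to 20.7) and 27.1 CPM in the high dose group (107 UMIs, 22.2 to 32.7). The matching levels in the spleen-labelled library were 52.3 CPM (87 UMIs, 41.9 to 64.6), 29.5 CPM (85 UMIs, 23.6 to 36.5) and 38.5 CPM (50 UMIs, 28.6 to 50.7). The low dose group was the lowest in both libraries, its interval did not overlap that of the vehicle group, and the intervals of the high dose and vehicle groups overlapped in the spleen-labelled library. The log2 ratio of the low dose to the vehicle was -1.30 in the liver-labelled library (-1.55 to -1.07, 2.47-fold lower) and -0.83 in the spleen-labelled library (-1.28 to -0.38, 1.77-fold lower). That of the high dose was -0.71 (-1.03 to -0.41) and -0.44 (-0.98 to 0.07). Counted per 100 cells, Zbp1 was at 37.1, 15.5 and 54.0 UMIs in the liver-labelled library and 29.6, 15.1 and 45.0 UMIs in the spleen-labelled library, so that the high dose group was the highest and the low dose group still the lowest. The cells differed in depth, with a median of 4367, 5712.5 and 18598 UMIs per neutrophil-like cell in the liver-labelled library and 3408, 4015.5 and 11077 in the spleen-labelled library. With each cell thinned to 1000 UMIs, Zbp1 was found in 7.48%, 2.42% and 2.55% of neutrophil-like cells in the liver-labelled library and in 7.80%, 4.74% and 8.18% in the spleen-labelled library. The same share in granulocyte progenitor-like cells, which held little Zbp1, was 0% (up to 1.20%) and 0.912%. The part that depth played in the values by group was not tested.

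Ripk3 was higher in neutrophil-like cells of the high dose group of the liver-labelled library. It was at 7.38, 5.69 and 13.7 CPM in the vehicle, low dose and high dose groups of the liver-labelled library, from 88, 63 and 54 UMIs, and at 6.02, 5.90 and 13.1 CPM in the spleen-labelled library, from 10, 17 and 17 UMIs. The high dose group was the highest in both libraries, and its interval did not overlap that of the vehicle group in the liver-labelled library. The log2 ratio of the high dose to the vehicle was 0.89 (0.37 to 1.39, 1.85-fold higher) in the liver-labelled library and 1.12 (-0.09 to 2.41) in the spleen-labelled library, where 27 UMIs fell short of the minimum of 50. Adar was at 15.7, 15.1 and 11.9 CPM in the liver-labelled library and at 21.7, 14.9 and 12.3 CPM in the spleen-labelled library, with a log2 ratio of the high dose of -0.81 (-1.76 to 0.07) in the latter. Per cell that ratio was 0.24, of the opposite sign. Ripk1 (51.5, 47.6 and 35.9 CPM in the liver-labelled library and 45.7, 48.6 and 40.8 CPM in the spleen-labelled library), Casp8 (21.0, 20.8 and 19.0 CPM, and 22.3, 18.4 and 25.4 CPM) and Cflar (54.7, 59.4 and 54.7 CPM, and 70.4, 62.5 and 84.6 CPM) did not differ by 1.5-fold at either dose. Mlkl stood at 3, 1 and 3 UMIs in the 3 groups of the liver-labelled library and at 0, 0 and 2 UMIs in the spleen-labelled library, too few for a comparison. Fadd stood at 6, 13 and 3 UMIs and at 1, 3 and 3 UMIs. With enough UMIs to be compared, 2 of 6 genes (Zbp1 and Ripk3) differed at the high dose in the liver-labelled library, where 34.0% of all 7417 genes did, and 1 of 5 (Adar) in the spleen-labelled library, where 20.6% did. At the low dose 1 of 6 and 1 of 5, Zbp1 in each library, differed, where 8.03% and 10.7% of all genes did.

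**Figure D3:**
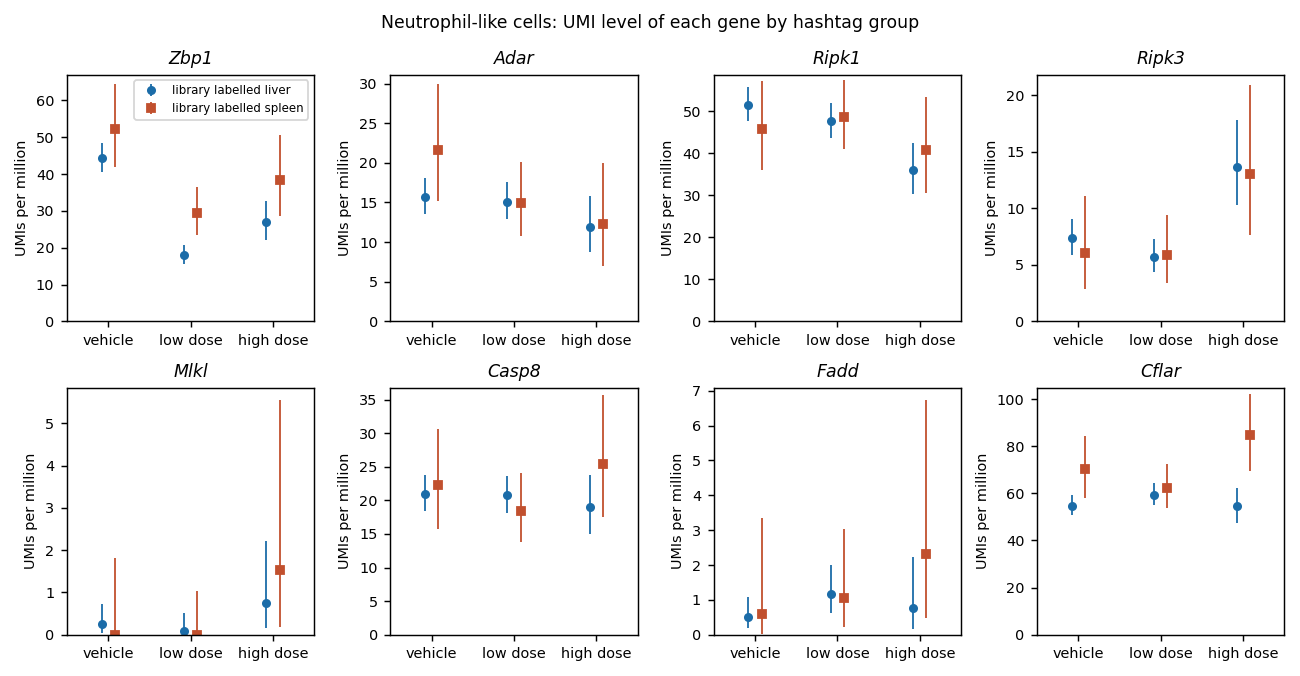
CPM of the 8 genes (vertical axes) in neutrophil-like cells of the vehicle, low dose and high dose groups (horizontal axes). Circles are the liver-labelled library, squares the spleen-labelled library and bars exact 95% Poisson intervals. Zbp1 was lowest in the low dose group and Ripk3 highest in the high dose group in both libraries. In the spleen-labelled library the vehicle and high dose groups together held fewer UMIs of Ripk3 than the minimum of 50 for a comparison. For Mlkl and Fadd the levels rest on at most 13 UMIs per group.

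Markers of other cells in the neutrophil-like class were read beside Ripk3. All 5 basophil or mast cell markers were found in the high dose group of the liver-labelled library, with a summed level of 97.2 CPM, against 0.755 CPM in the vehicle and 1.72 CPM in the low dose group. That sum was 1.49% of its level in the Prss34-led cluster, and the same percentage of the Ripk3 level of that cluster is 0.599 CPM. This cluster had too few raised markers for a class name, so its levels are not those of a named cell class. The part of basophils or mast cells in Ripk3 was not tested. The 6 monocyte markers summed to 103, 132 and 61.2 CPM, or 2.85%, 3.63% and 1.69% of their level in monocyte-like cells, and the matching parts of the Ripk3 level are 1.36, 1.73 and 0.804 CPM. All 7 macrophage markers were found in each group of the spleen-labelled library and summed to 114, 55.5 and 295 CPM, or 0.923%, 0.448% and 2.39% of their level in macrophage-like cells, and the matching parts of Ripk3 are 0.510, 0.248 and 1.32 CPM. The monocyte markers of that library summed to 164, 115 and 192 CPM, or 4.06%, 2.84% and 4.73% of their level in monocyte-like cells, and the matching parts of Ripk3 are 1.75, 1.22 and 2.04 CPM. Hepatocyte markers in the same cells summed to 27.1, 71.5 and 154 CPM and erythroid markers to 57.8, 1199 and 154 CPM. Their part in the result was not tested.

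The neutrophil-like cells of the groups lay in different clusters. Of the 198 neutrophil-like cells of the high dose group in the liver-labelled library, 147 (74.2%) lay in the cluster led by Stfa3 and Stfa2, against 17.3% in the vehicle and 18.6% in the low dose group. The 2 clusters led by Il1b and Csf3r genes, where Zbp1 was highest per UMI, held 45.5% and 24.3% of the vehicle cells. They held 23.4% and 35.4% of the low dose cells but 4.55% and 1.52% of the high dose cells. Of the 111 in the spleen-labelled library, 82 (73.9%) lay in the cluster led by Stfa3 and Ly6g, against 27.9% and 22.3%. Another cluster of that library, led by Bcl2l15, Orm1 and Apoa2, held 119 of the 564 low dose neutrophil-like cells (21.1%). It held 2 of the 294 vehicle cells and 2 of the 111 high dose cells.

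Within clusters, the low dose ratio of Zbp1 kept its sign and the high dose ratio did not. Zbp1 was lower in the low dose than in the vehicle group in 8 of 8 neutrophil-like clusters with at least 30 cells of each, with log2 ratios from -1.46 to -0.71 in the liver-labelled library and from -1.03 to -0.86 in the spleen-labelled library. In the clusters led by Il1b, Zbp1 was at 99.6 CPM in the vehicle and 40.5 CPM in the low dose group (cluster 2), and at 104 and 37.9 CPM (cluster 3). The interval of the ratio excluded 0 in 4 of the 5 clusters of the liver-labelled library and in 1 of the 3 of the spleen-labelled library. At the high dose only the Stfa3-led cluster of each library held enough cells, a choice of cells made after the data were seen. There Zbp1 was at 20.0 CPM in the vehicle and 28.1 CPM in the high dose group of the liver-labelled library, a log2 ratio of 0.49 (0.04 to 0.94), and at 19.8 and 31.2 CPM in the spleen-labelled library, a log2 ratio of 0.65 (-0.20 to 1.55). Both ratios had the opposite sign to those of the pooled class, but the first was under 1.5-fold and the interval of the second included 0. The ratio of Ripk3 in these clusters was 0.60 (-0.12 to 1.33) and 0.03 (-1.52 to 1.6).

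**Figure D4:**
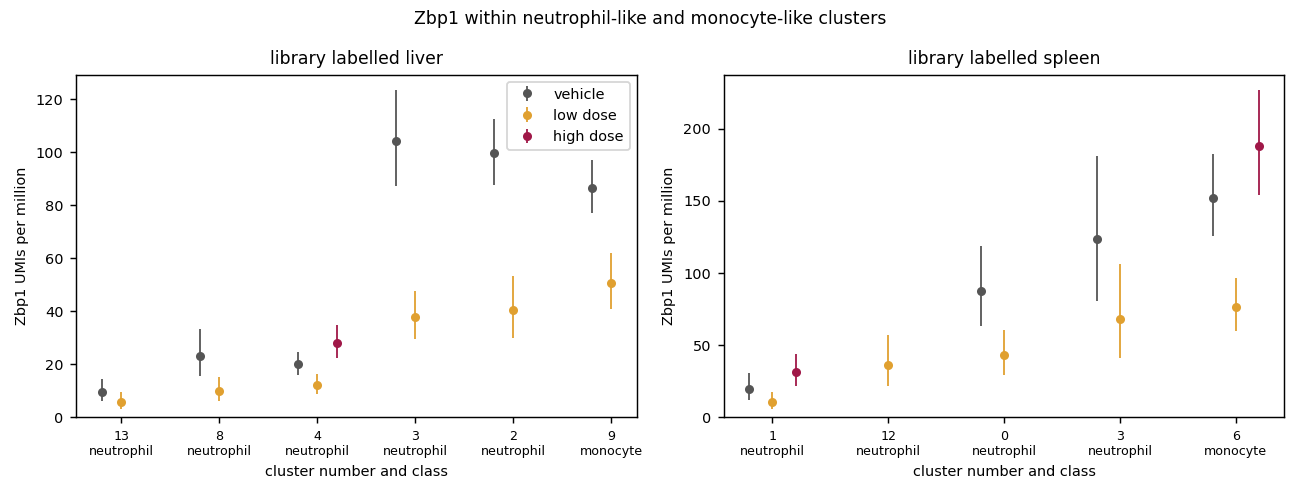
CPM of Zbp1 (vertical axes) by hashtag group (colors) within each neutrophil-like and monocyte-like cluster (horizontal axes, cluster number and class) with at least 30 cells of the group, with exact 95% Poisson intervals. The low dose was below the vehicle in each cluster that held both, and in the 2 neutrophil-like clusters that held high dose cells their level was 28.1 and 31.2 CPM, beside 20.0 and 19.8 CPM in the vehicle, with overlapping intervals.

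Zbp1 was also lower at the low dose in monocyte-like cells. It was at 86.6 CPM in the vehicle group (291 UMIs) and 50.6 CPM in the low dose group (94 UMIs) of the liver-labelled library, a log2 ratio of -0.77 (-1.13 to -0.43). The high dose group held only 26 monocyte-like cells there and was not compared. Zbp1 was at 152, 76.7 and 188 CPM in the vehicle, low dose and high dose groups of the spleen-labelled library, from 115, 72 and 109 UMIs. The log2 ratio was -0.99 (-1.43 to -0.55) at the low dose and 0.31 (-0.09 to 0.70) at the high dose. The low dose group was the lowest in monocyte-like cells of both libraries, as in neutrophil-like cells. Cflar, which restrains caspase-8, was higher in monocyte-like cells of both CBL0137 groups of the spleen-labelled library, with 52.9, 103 and 93.0 CPM and log2 ratios of 0.97 (0.42 to 1.54) and 0.82 (0.20 to 1.44). The log2 ratio of Cflar at the low dose was 0.19 in the liver-labelled library. Ripk3 was at 45.8 and 49.5 CPM in the vehicle and low dose groups of the liver-labelled library, and at 38.3, 45.8 and 44.8 CPM in the spleen-labelled library. Of the genes compared, 1 of 8 differed at the low dose in the liver-labelled library, where 9.56% of all genes did. In the spleen-labelled library 2 of 6 differed at the low dose, where 13.1% did, and 1 of 5 at the high dose, where 15.2% did.

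T cell-like cells of the liver-labelled library showed no difference of 1.5-fold in any of the 7 genes compared, at either dose. All genes together differed by that much in 4.97% of cases at the high dose and 4.77% at the low dose. Zbp1 was at 59.3, 60.1 and 60.2 CPM in the 3 groups, and Ripk3 at 12.1, 14.4 and 17.0 CPM. Only 43 T cell-like cells of the vehicle group were in the spleen-labelled library, and Zbp1 there was at 108, 59.6 and 83.2 CPM. Of the genes compared, 1 of 3 (Zbp1, log2 ratio -0.86, -1.64 to -0.06) differed at the low dose, where 17.0% of all genes did, and 1 of 4 (Ripk1, log2 ratio 0.89, -0.30 to 2.39) at the high dose, where 28.8% did. The vehicle group of these cells held 221394 UMIs in all. Markers of other cells moved with the groups. Macrophage markers summed to 45.2, 498 and 313 CPM in the vehicle, low dose and high dose groups of these cells, neutrophil markers to 1021, 5350 and 471 CPM, erythroid markers to 9.03, 1279 and 3.65 CPM and plasma cell markers to 0, 3.14 and 802 CPM. NK cell markers summed to 2489, 2356 and 3903 CPM, against 75.7, 84.0 and 93.1 CPM in T cell-like cells of the liver-labelled library. Their part in these values was not tested.

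Macrophage-like cells of the spleen-labelled library held both Ripk3 and Mlkl in every group. Ripk3 was at 51.0, 55.7 and 56.3 CPM in the vehicle, low dose and high dose groups, and Zbp1 at 84.2, 68.9 and 76.0 CPM. Mlkl was at 14.0, 12.5 and 21.4 CPM, with a log2 ratio at the high dose of 0.61 (-0.35 to 1.70), whose interval included 0. The 5 Kupffer markers in these cells summed to 1247, 2749 and 3429 CPM and the neutrophil markers to 978, 5582 and 5899 CPM, and their part in these levels was not tested. The cluster led by Arg1 and Ccl8 held 53 of the 61, 83 of the 109 and 84 of the 124 macrophage-like cells of the 3 groups. In it Mlkl was at 12.2, 13.3 and 16.6 CPM, with a log2 ratio at the high dose of 0.45 (-0.68 to 1.72), under 1.5-fold. In the whole class Mlkl was 1 of 7 genes to differ at the high dose, where 16.1% of all genes did. At the low dose 0 of 6 differed, where 13.2% did. Endothelial-like cells were few, with 36, 104 and 110 cells, and held 1, 9 and 27 UMIs of Zbp1 (11, 29.7 and 54.2 CPM) and 0, 4 and 12 UMIs of Ripk3. A count of 0 for Ripk3 in the vehicle group allows up to 33.0 CPM, so no difference of Ripk3 was detectable there, and the counts of Mlkl were 4, 6 and 10. Macrophage markers in these cells summed to 121, 602 and 1165 CPM and erythroid markers to 7583, 6.61 and 6.02 CPM, and their part in these counts was not tested. Of the 74 tumor cell-like cells, 47 were from the high dose group, in which Zbp1 was at 37.6 CPM, Mlkl at 24.9 CPM and Ripk3 at 3.76 CPM (8 UMIs). The other groups had 11 and 16 such cells and were not compared. In granulocyte progenitor-like cells, Casp8 was higher at the high dose in the liver-labelled library, with 28.6 and 44.4 CPM in the vehicle and high dose groups and a log2 ratio of 0.64 (0.20 to 1.07). It was 1 of 4 genes, where 9.45% of all genes differed, and 0 of 5 differed at the low dose, where 6.43% did. Ripk3 was lower at the high dose in progenitor-like cells of the spleen-labelled library, with 30.7, 34.6 and 14.9 CPM and a log2 ratio of -1.04 (-1.80 to -0.35). It was 1 of 6 genes, where 26.0% of all genes differed, and 1 of 8 (Zbp1, log2 ratio -1.0, -1.87 to -0.17) differed at the low dose, where 12.7% did. The difference between these cells and neutrophil-like cells in the dose ratio of Ripk3 was not tested. The progenitor-like class of the spleen-labelled library joined the cluster led by Ctsg and Mpo and that led by Camp and Cebpe, whose levels of Ripk3 and Zbp1 differed, as given above. The part that the mix of these clusters in each group played in the ratios was not tested.

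Between the 2 libraries, vehicle neutrophil-like cells did not differ by 1.5-fold in any of the 6 genes compared, where 23.7% of all genes did. In monocyte-like cells 3 of 7 differed, where 30.6% of all genes did, with Zbp1 higher in the spleen-labelled library by a log2 ratio of 0.81 (0.49 to 1.13), Adar by 0.82, and Fadd lower at -1.37. In T cell-like cells 3 of 5 differed, where 42.4% did, with Zbp1 higher at 0.87 and Adar and Ripk1 lower at -1.0 and -0.75. In granulocyte progenitor-like cells 5 of 7 differed, where 49.6% did, and all 5 were higher in the spleen-labelled library, Ripk3 by 1.69 (1.11 to 2.29). The intervals of Fadd in monocyte-like and of Adar and Ripk1 in T cell-like cells included 0. Tissue and library cannot be told apart in these ratios.

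Genes around the 8 were read from lists of interferon-stimulated genes, of the TNF receptor complex, of death receptors and caspases, and of other nucleic acid sensors. Their levels and ratios here and below are per UMI only. The part that depth per cell and the mix of clusters in each group played in them was not tested. In neutrophil-like cells at the low dose, 9 of 14 interferon-stimulated genes were at least 1.5-fold lower in the liver-labelled library and none higher, with a median log2 ratio of -0.81 beside -0.11 over all genes, of which 6.56% were lower. In the spleen-labelled library 6 of 12 were lower and none higher, with a median of -0.58 beside -0.04, where 6.26% were lower. At the high dose 6 of 14 and 3 of 9 were lower and none higher, with medians of -0.51 and -0.46 beside -0.34 and -0.06 over all genes, of which 31.6% and 14.0% were lower. Bst2, Ifit1, Oasl2, Parp14 and Xaf1 were lower at the low dose in both libraries, the same direction as Zbp1. Monocyte-like cells at the low dose gave 2 of 10 and 2 of 9 lower and none higher, where 5.09% and 4.33% of all genes were lower. At the high dose in the spleen-labelled library, by contrast, 9 of 15 interferon-stimulated genes were higher in macrophage-like cells, where 10.3% of all genes were, and 5 of 10 in monocyte-like cells, where 9.98% were. Rsad2, the antiviral enzyme viperin, was at 10.2 and 122 CPM in vehicle and high dose macrophage-like cells, and Irf7, the interferon regulatory factor, at 112 and 256 CPM, while Zbp1 was at 84.2 and 76.0 CPM. Zbp1 was thus not among the genes that were higher in macrophage-like cells. The share of macrophage-like cells in the cluster led by Arg1 and Ccl8 differed between the groups, as given above, and its part in these values was not tested.

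In neutrophil-like cells 1 of 20 and 3 of 16 genes of the TNF receptor complex were higher and 0 and 1 lower at the low dose in the liver- and spleen-labelled libraries, with medians of -0.07 and 0.14. Over all genes 1.47% and 4.45% were higher and 6.56% and 6.26% lower, with medians of -0.11 and -0.04. Tnfaip3, an inhibitor of NF-κB, was higher in both. At the high dose 1 of 19 and 0 of 11 were higher and 6 and 2 lower, with medians of -0.49 and -0.24. Over all genes 2.36% and 6.58% were higher and 31.6% and 14.0% lower, with medians of -0.34 and -0.06. The same shares over all genes stand beside the other lists below, and nothing particular to these lists was read from their counts. Birc3, a ubiquitin ligase that modifies Ripk1, had log2 ratios of -1.10 and -0.59, and Tab2, an adaptor of the kinase TAK1, of -0.71 and -0.71. Among death receptors, ligands and caspases, 1 of 10 was higher and 2 lower at the high dose in the liver-labelled library, and 0 of 6 higher and 1 lower in the spleen-labelled library. Fas, the death receptor that binds Fadd, was at 41.9 and 19.0 CPM in vehicle and high dose cells of the liver-labelled library and at 39.1 and 14.6 CPM in the spleen-labelled library, log2 ratios of -1.14 and -1.42. At the low dose 0 of 10 and 0 of 7 of that list were higher and 0 and 1 lower. Of the nucleic acid sensors, 0 of 7 and 0 of 3 were higher at the low dose and 1 lower in each library, Ifih1 and Ddx58. At the high dose 1 of 7 was higher and 2 lower in the liver-labelled library, and none of 3 past 1.5-fold in the spleen-labelled library.

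Ifit1 encodes an antiviral RNA-binding protein of the interferon response, and its promoter is printed to show the motif searched for. Of the listed interferon-stimulated genes, Ifit1 and Oasl2 were those lower per UMI in neutrophil-like cells at both doses in both libraries. Ifit1 was at 16.8, 7.41 and 6.83 CPM in the vehicle, low dose and high dose groups of the liver-labelled library. Its levels in the spleen-labelled library were 25.3, 9.37 and 13.1 CPM. The motif GAAANNGAA, part of the element that interferon-activated factors bind, was looked for on both strands in 300-base windows from 250 bases before to 50 after each start site in RefSeq (GRCm38.p6). The bases before the start of Ifit1, chr19:34640639-34640888 on the plus strand, hold 3 matches on the minus strand, so the strand printed shows the reverse complement. They start 109, 103 and 84 bases before the start site, the first 2 overlap, and capitals mark them.
Ifit1: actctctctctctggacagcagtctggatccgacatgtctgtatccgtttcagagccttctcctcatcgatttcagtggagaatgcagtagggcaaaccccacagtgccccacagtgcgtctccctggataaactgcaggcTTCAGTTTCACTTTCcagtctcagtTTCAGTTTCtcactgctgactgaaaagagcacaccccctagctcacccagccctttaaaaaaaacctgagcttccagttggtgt
The motif was in 2812 of 32851 promoters (8.56%). Promoters of 7 of the 8 genes were matched by symbol, 10 promoters in all, and Zbp1 was not among them. Of these 7 genes, 4 held the motif, Adar (34 bases after a start site, and once more at the far end of the same window), Ripk1 (5 bases before), Ripk3 (15 after) and Cflar (8 after, on the minus strand). Adar and Ripk1 also had windows without it. The 8.56% counts promoters, so the counts by gene here cannot be set against it. The windows of Mlkl, Casp8 and Fadd did not hold these letters. Of the 13 listed interferon-stimulated genes with a promoter, 7 held the motif.

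The genes most like each of the 8 were found over 36 combinations of library, cell class and group, by Pearson's r of log2 levels with 10 CPM added. These points share libraries and depth, and r is given as a description. For Zbp1 the nearest were interferon-stimulated genes and genes of antigen presentation, with r of 0.87 for Xaf1, 0.79 for Irf7, 0.79 for Tap1 and 0.78 for Gbp2b and Gbp2. For Ripk3 they were Pdxk (0.90), Gsto1, Akr1a1 and Tep1 (0.88) and Igsf8 (0.87), for Mlkl Hsd3b7 and Hpse (0.89), and for Casp8 Sec61a1, Ext2 and Galk2 (0.92). Adar was nearest to Tgfbrap1 (0.86), Ripk1 to Klhl9 and Itm2b (0.87), Fadd to Elavl1 (0.88) and Cflar to Tgoln1 (0.88). No gene of the 8 was among the 5 nearest of another, a comparison that left out Mlkl as a neighbor because it held fewer than 500 UMIs over both libraries.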

How the data were processed

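The deposited values are raw UMI counts of genes and hashtags in filtered matrices, neither normalized nor labelled by cell type. The matrix header gives Cell Ranger 5.0.0, the submitters' processing notes list Cell Ranger 6.0.0, Seurat and mm10, and the study's methods name another version. The depth was 26508853, 24825952 and 17333148 UMIs in the vehicle, low dose and high dose groups of the liver-labelled library, and 7130127, 10552754 and 10589251 in the spleen-labelled library. No column of another series was found (0 columns).

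Hashtags were called with HTODemux at a quantile of 0.99 (Seurat 5.3.0 in R 4.3.3), and only barcodes carrying 1 hashtag entered the comparisons. The libraries were clustered apart with SCTransform (sctransform 0.4.2), 30 principal components and resolution 0.8, with 74 genes (the 8 and the lists around them) left out of the variable features. Names of the form X-like needed 3 or more markers of a list that reached a log2 fold of 1 in 20% or more of a cluster's cells. Details of this naming rule were completed after the data were seen. Doublets between hashtags were removed, and Scrublet (scanpy 1.11.5) was used as an alternative only. It marked 2.59% of barcodes in the liver-labelled library and 0.021% in the spleen-labelled library, where it had not worked.

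Levels are sums of UMI counts over a class and group per 1000000 UMIs (CPM). Intervals at 95% were exact Poisson for levels, exact conditional binomial for ratios and exact Clopper-Pearson for shares of cells. Where a gene had 0 UMIs, 3 counts gave its upper limit. Comparisons needed at least 30 cells per side, and orders of classes at least 50. Shares of cells with a UMI were taken after thinning each cell to 1000 UMIs with a fixed seed. Python 3.11.15, numpy 2.4.6, scipy 1.17.1, pandas 2.3.3 and matplotlib 3.10.9 were used, and the ratio script was tested on simulated data.

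The 8 genes and the lists were chosen with earlier results of these data known. The rule was to name all 8 genes in every comparison, list genes at least 1.5-fold apart the same way in both libraries at the high dose in neutrophil-like cells, at most the 3 largest and 3 smallest ratios per list otherwise, and the 5 genes most like Zbp1 and Ripk3. The rule was not kept everywhere, since several comparisons give ratios for only some of the 8 genes. Parp14, Xaf1, Tnfaip3, Irf7, Ifih1, Ddx58 and the genes most like the other 6 were named after their values were seen.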

Additional observations from a re-analysis of the deposited data

How the results depend on the processing

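Alternatives were run for hashtag calling, cell filters, doublets, clustering, scaling, minimum counts and the fold threshold, and 1 of them, only the cells of the neutrophil-like cluster with most high dose cells, was chosen after seeing the data. No paired analysis was possible because each group was 1 pool in 1 library and the labels give no pairs. Leaving out a replicate was not possible for the same reason. No cause of the changes below was tested.

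The log2 ratio of Zbp1 at the high dose in neutrophil-like cells changed sign with the setting in both libraries. In the liver-labelled library it was -0.71, and it was -1.19 as a mean over cells, 0.54 as UMIs per cell and 0.49 within the largest high dose cluster. In the spleen-labelled library it was -0.44, and it was 0.21 with log-normalization, 0.61 as UMIs per cell and 0.65 within that cluster. At the low dose it was -1.30 in the liver-labelled library and -0.71 within that cluster. As UMIs per cell, Adar at the high dose in the spleen-labelled library turned to 0.24, Ripk3 against T cell-like cells in the liver-labelled library to 0.021, and Ripk1 and Cflar against macrophage-like cells there to 0.35 and 0.12. Ripk3 against T cell-like cells was 0.0097 without the 20 most abundant genes. Zbp1 against T cell-like cells in the liver-labelled library was -0.42, and ran from -0.63 to 0.39 over the alternatives.

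The counts of the 8 genes at least 1.5-fold apart in neutrophil-like cells are small, and so moved easily. At the high dose in the liver-labelled library the count was 2, and it was 4 at resolution 0.4, 1 at resolution 1.6, 5 as a mean over cells, 5 as UMIs per cell, 0 at 2-fold and 4 with at least 1 UMI. At the low dose it was 1, and 3 with at least 1 UMI. In the spleen-labelled library at the high dose it was 1, and it was 0 with the cell filter, at resolution 1.6, with log-normalization and at 2-fold, 2 with the dominant hashtag and with at least 20 UMIs, 3 as a mean over cells, and 4 as UMIs per cell and with at least 1 UMI. At the low dose there it was 1, and it was 0 with log-normalization and at 2-fold, and 2 with the cell filter, as UMIs per cell, with both doses summed and with at least 1 UMI. Lower than in T cell-like cells were 4 genes in the liver-labelled library, but 1 without the 20 most abundant genes and 1 as UMIs per cell, and 2 in the spleen-labelled library, but 0 with MULTIseqDemux and with log-normalization and 1 at resolution 1.6 and without the 20 most abundant genes. Lower than in macrophage-like cells were 5 in the liver-labelled library, but 3 without the 20 most abundant genes, 2 as a mean over cells and 1 as UMIs per cell, and 4 in the spleen-labelled library, but 1 with MULTIseqDemux and with the dominant hashtag and 2 without the 20 most abundant genes and as a mean over cells.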

Other observations

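Barcodes without a hashtag call entered none of the comparisons. In the liver-labelled library their 540 barcodes held Zbp1 at 15.5 CPM (11.1 to 21.3), against 35.1 CPM over the assigned cells, Ripk3 at 7.97 CPM (4.87 to 12.3) against 16.9 CPM, Casp8 at 23.1 CPM (17.6 to 29.9) against 52.1 CPM and Mlkl at 1.59 CPM (0.434 to 4.08) against 2.27 CPM. Fadd was at 10.4 CPM (6.77 to 15.2) against 6.90 CPM. In the spleen-labelled library the 1627 barcodes held Zbp1 at 32.1 CPM (27.2 to 37.7).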
